A study of Mus musculus with 24 samples.

Results

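The comparison was of pre-granulosa cells of the mouse fetal ovary at embryonic days E12.5 and E13.5, across all genes. Its members were the 3 XX libraries labelled E12.5 and the 3 labelled E13.5, taken by their labels, which are 6 of the 24 RNA libraries of the series. All 6 came from XX fetal gonads of 1 mouse line, whose genotype is given as Tg(Enh8-mCherry), and the cells were collected by fluorescence-activated sorting at about 40000 cells a sample. The labels do not say which cells the enhancer of the transgene drives or how many embryos were pooled. Nor do they say whether the 3 libraries of a stage came from separate animals or litters. The p-values rest on the spread between libraries of the same group, estimated with all 24 libraries, and that spread may be technical. The other libraries whose levels are given were the XX libraries of E11.5 and E15.5 from the same line, 3 in each group. The same holds for the XY Sertoli libraries of E12.5 and E13.5 from the SOX9-IRES-GFP line, also 3 in each group. The XY libraries of E11.5 and E15.5 entered only the scaling, the filter and the estimate of spread. Sex, mouse line and fluorophore change together between the pre-granulosa and the Sertoli libraries, so what belongs to each cannot be told apart. For replicate 1 of E13.5 the title gives E13.5 and another field of its label gives E12.5, and it was taken as E13.5. RNA with poly(A) tails was amplified as cDNA with a kit for small inputs.

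Pre-granulosa cells are the supporting cells of the ovary. They arise from the same bipotential gonad as Sertoli cells, lie around the germ cells, and later form the follicles. In the gonad of both sexes, transcription factors such as GATA4, NR5A1, WT1, EMX2 and the Polycomb protein CBX2 build the supporting lineage, after which WNT4, RSPO1 and FOXL2 hold the ovarian fate and SOX9 and AMH mark the testicular one. The days compared here follow the onset of sex-specific development, when Sertoli cells divide in cords and pre-granulosa cells largely leave the cell cycle.

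The sorted cells carried the defining markers of pre-granulosa cells at both stages. Levels are given in CPM, which are counts scaled to a common library size with TMM factors, and over these 6 libraries Foxl2 lay between 16.8 and 35.5 CPM, Irx3 between 180.9 and 258.5, and Wnt4 between 65.5 and 100.7. Amh, the hormone of Sertoli cells, was at most 0.909 CPM, against means of 3841.2 and 4821.9 CPM in the Sertoli libraries of E12.5 and E13.5. Sox9 lay between 52.6 and 93.4 CPM, against Sertoli means of 2017.8 and 1521.1 CPM. Total counts were 23912018, 20200521 and 20669526 at E12.5 and 13057413, 23601474 and 12872593 at E13.5, and 3 counts, taken as the floor of detection, came to between 0.117 and 0.227 CPM. Replicate 1 of E13.5 correlated with the other E13.5 libraries at a mean Spearman rho of 0.9641 and with the E12.5 libraries at 0.9611, over all genes of the table. Replicates 2 and 3 of E13.5 gave 0.9648 and 0.9651 with their own stage. Over genes passing the expression filter, replicate 1 gave 0.9932 with the other E13.5 libraries and 0.9773 with those of E12.5. On the first principal component of the 12 pre-granulosa libraries, which held 55.4% of the variance, replicate 1 of E13.5 lay at 18.31 and replicates 2 and 3 at 24.6 and 21.78, while the E12.5 libraries lay at -16.08, -22.12 and -15.67.

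Of 16190 genes tested, 14.2% were called higher at E13.5 and 17.4% lower, where called means an adjusted p under 0.05 in edgeR's quasi-likelihood test (Benjamini-Hochberg adjustment over all genes tested), and 31.7% were called in all. Falls outnumbered rises at log2 changes from 1 to 2 (856 against 255) but not at changes of 2 or more (143 against 150). A log2 change of at least 1 was reached by 8.67% of the genes tested. They were 405 genes that rose (2.5% of those tested) and 999 that fell (6.17%). The balance between rises and falls depended on the scale. Of the genes called, 45.0% were higher in the count test, against 18.9% in limma's test on log2(TPM + 1), where TPM is the deposited length-scaled level and where the median of all genes lay 0.16 lower on the log2 scale. Without replicate 1 of E13.5 the test called 2011 genes higher and 2474 lower.

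**Figure D1:**
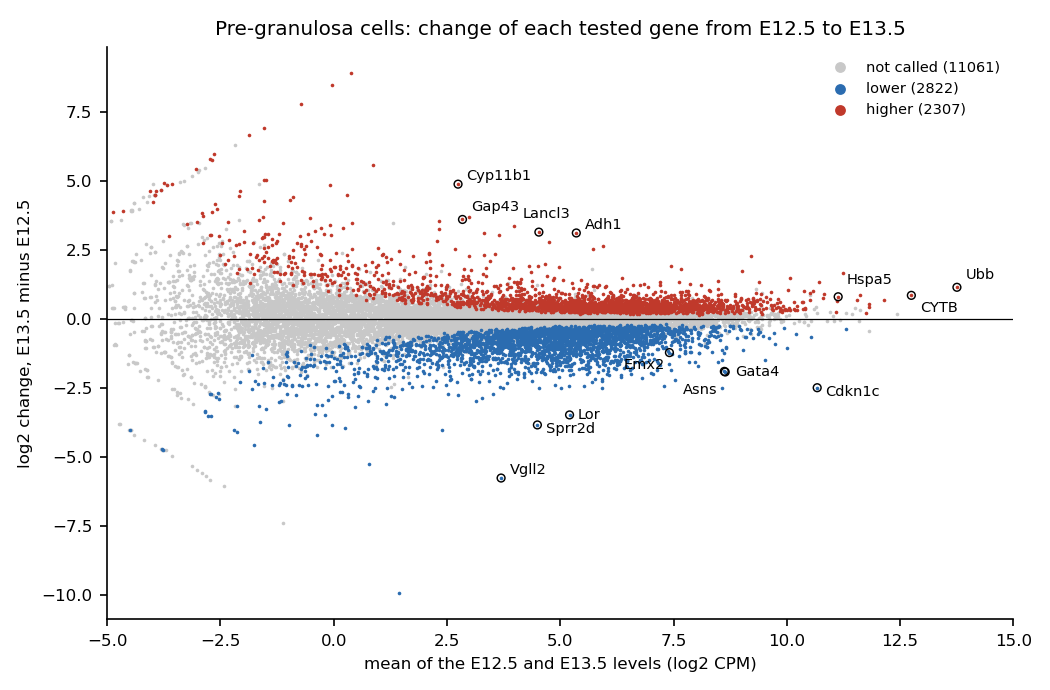
Change of each of 16190 tested genes in pre-granulosa cells, as log2 of E13.5 over E12.5 on the vertical axis, against the mean level on the horizontal axis in log2 CPM. Red points are the 2307 genes called higher, blue the 2822 called lower and grey those not called, and circled genes are named in the text; points below a log2 change of -1 are more numerous than points above 1.

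The changes followed the base composition and the length of transcripts. Genes in the lowest quintile by GC content of their longest transcript (31.0 to 43.9%) had a median log2 change of 0.1, and genes in the highest quintile (55.5 to 72.8%) one of -0.31, with 33.8% of the latter called lower. The shortest quintile of transcripts had a median of 0.21 and the longest one of -0.16. In Sertoli cells over the same days the medians of the quintiles lay between -0.03 and 0.0 for GC content and between -0.06 and 0.0 for length. Between E11.5 and E15.5 in pre-granulosa cells, a contrast that shares no library with E12.5 and E13.5, the median ran from 0.19 in the lowest to -0.54 in the highest quintile by GC content. A fit with these trends removed from each library, chosen after seeing the data, called 2249 genes higher and 2169 lower, and 64.8% of the genes called in the count test were called there with the same sign. Values from that fit are given beside a gene where it ends the call or moves the fold by over 1.5 times. The part of composition and length in these changes was not tested beyond this.

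**Figure D2:**
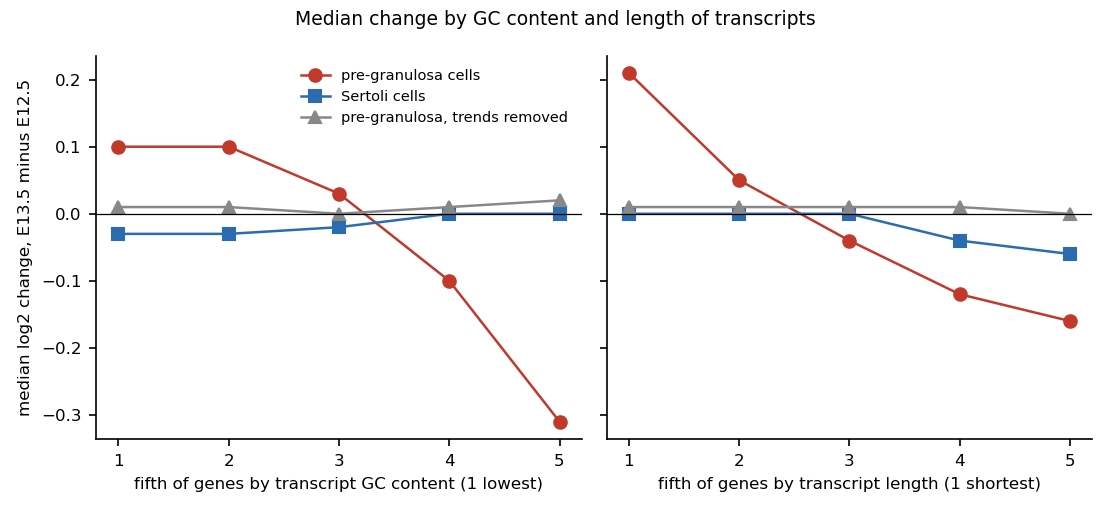
Median log2 change from E12.5 to E13.5 of genes split in quintiles by GC content (left) and by length (right) of their longest transcript, for pre-granulosa cells, Sertoli cells, and pre-granulosa cells with both trends removed. The median of pre-granulosa cells falls from 0.1 to -0.31 over GC content and from 0.21 to -0.16 over length. That of Sertoli cells stays near 0, and the line with the trends removed lies there because the fit takes them out.

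Of the transcription factors of the early gonad, more fell than rose between E12.5 and E13.5. Of 16 tested, 10 fell (62.5%) and 1 rose (6.25%), against 17.4% and 14.2% of all genes. The median log2 change was -0.63 against 0.0 for all genes, and with the trends removed 7 fell and 1 rose. Gata4, a zinc finger factor needed to form the gonad, read 610.8, 742.8 and 538.2 CPM in the 3 libraries of E12.5 and 200.1, 156.5 and 146.3 CPM in those of E13.5. Every E13.5 library was below every E12.5 library, and the log2 change was -1.91 (SE 0.22, adjusted p = 4.98e-06), or -1.37 with the trends removed. Emx2, a homeobox factor of the urogenital epithelium, read 225.7, 254.5 and 232.1 CPM at E12.5 and 115.1, 101.7 and 91.2 CPM at E13.5. Cbx2, the Polycomb protein, read 65.3, 66.0 and 46.1 CPM and then 22.6, 18.6 and 18.7 CPM. The groups did not overlap for either gene, with log2 changes of -1.21 (adjusted p = 9.95e-07) and -1.57 (adjusted p = 2.12e-05, and -0.94 with the trends removed), which is seen beside a share of 51.4% of all tested genes whose groups did not overlap. Smaller falls were called for Zfpm2, the cofactor of GATA proteins (-0.66), for Nr0b1 (-0.61), for Tcf21 (-1.22), for Wt1 (-0.45) and for Nr5a1 (-0.77). Those of Wt1 and Nr5a1 were not called with the trends removed (log2 changes of -0.24 and -0.17). Lhx9, a LIM homeobox factor, read between 257.3 and 292.8 CPM in all 6 libraries, and Gata6, the close relative of Gata4, read means of 85.4 and 69.2 CPM with an adjusted p = 0.156. Markers of the mesonephros moved with these genes. Of 11 tested 4 fell (36.4%), Emx2 being in both lists, and 1 rose (9.09%), and with the trends removed 2 fell and 1 rose. Without replicate 2 of E12.5 there were 2 that fell and 2 that rose, and without replicate 2 of E13.5 1 fell. The summed level of that list lay between 309.8 and 339.9 CPM at E12.5 and between 196.5 and 221.3 CPM at E13.5, without overlap, and its part in the falls was not tested.

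The fall of these factors kept its sign over the longer period for the genes named. In the E15.5 libraries Gata4 read 139.6, 156.1 and 112.0 CPM and Cbx2 6.08, 11.3 and 4.81 CPM. At E11.5 Gata4 read 741.3, 513.8 and 699.0 CPM. All Gata4 libraries of E11.5 and E12.5 lay above all those of E13.5 and E15.5, as the plot of 16 genes by stage shows. In the Sertoli step the log2 change of Gata4 was 0.23 (adjusted p = 0.526), and that of Emx2 was -0.31 (adjusted p = 0.102).

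**Figure D3:**
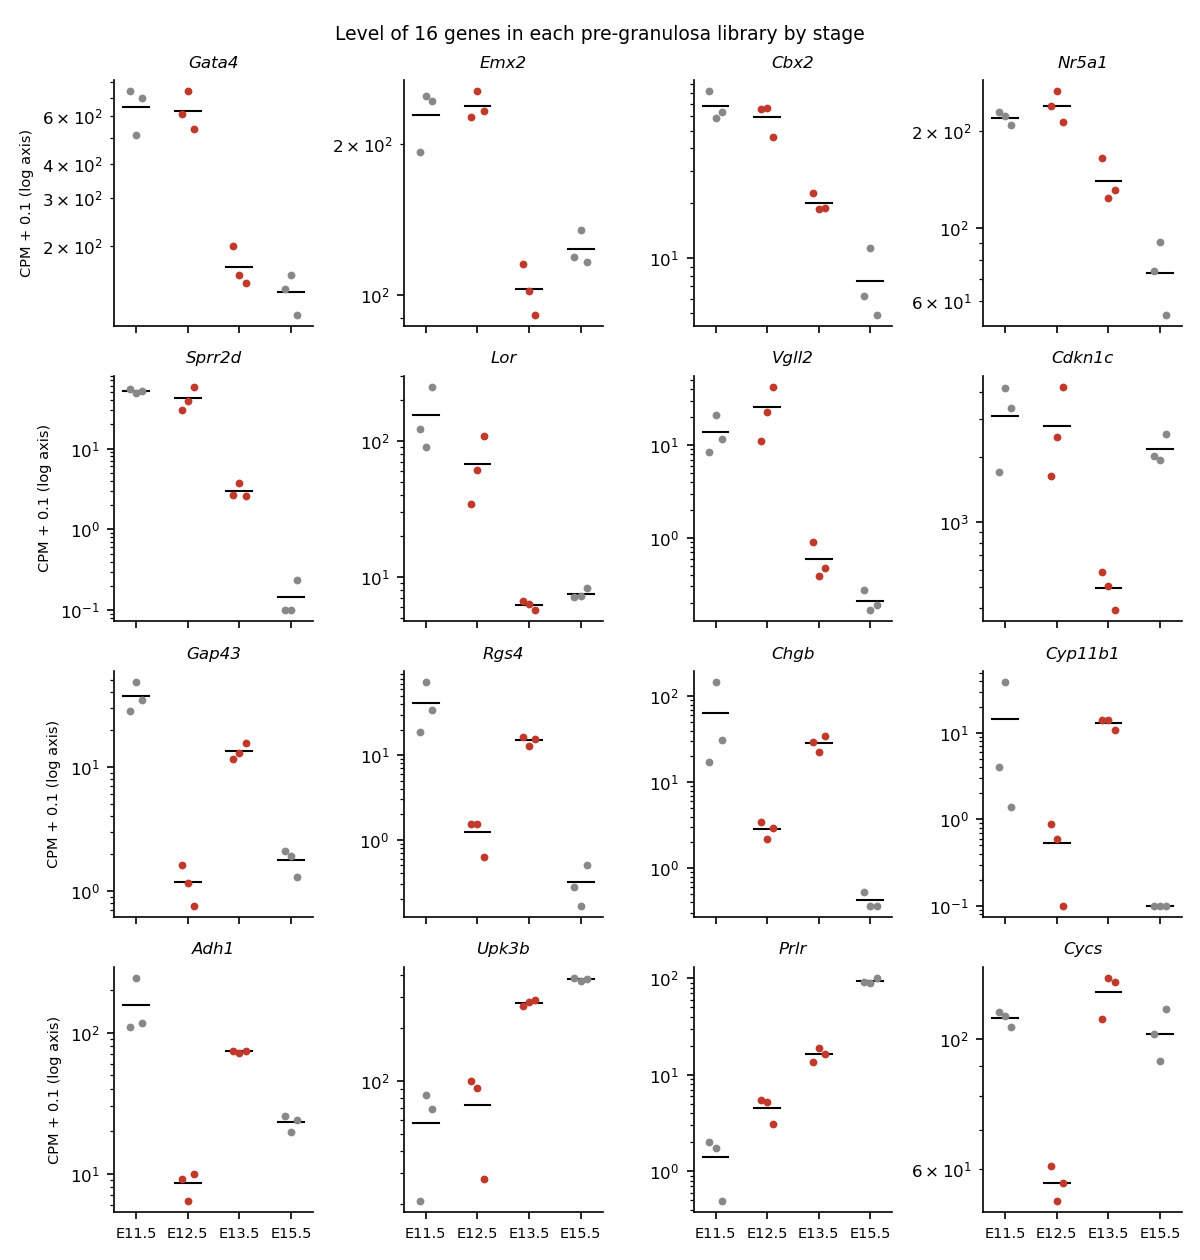
Level of 16 genes in each of the 12 pre-granulosa libraries, as CPM + 0.1 on a log axis, by stage. Points are libraries and black bars the mean of 3; red marks E12.5 and E13.5. Gata4 and Cbx2 drop at E13.5 and stay low at E15.5, while Gap43, Rgs4 and Chgb are higher at E11.5 and E13.5 than at E12.5 and E15.5; Cyp11b1 is high at E13.5 and, at E11.5, in replicate 2.

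Genes of pre-granulosa identity mostly did not pass the test. Of 16 tested, 1 was called lower (6.25%, against 17.4% of all genes) and 0 higher (against 14.2%). The gene that fell was Msx1, a homeobox target of BMP signals, which read 392.2, 371.1 and 396.5 CPM at E12.5 and 216.6, 200.7 and 177.3 CPM at E13.5 (log2 change -0.96, adjusted p = 8.14e-05), with no overlap. Foxl2 read 20.2, 35.5 and 30.3 CPM and then 22.9, 21.4 and 16.8 CPM, with overlapping groups (log2 change -0.49, SE 0.61, adjusted p = 0.587). Fst, the activin antagonist, read means of 636.3 and 411.8 CPM (-0.63, SE 0.38, adjusted p = 0.226), and Lgr5, the receptor for R-spondins, 188.3 and 256.1 CPM (0.44, SE 0.31, adjusted p = 0.307). With the trends removed, Wnt4 and Irx5 were called higher, and in a fit of the 6 libraries alone 1 gene of the list was higher and 4 lower. Over E11.5 to E15.5, 9 of these 16 genes were called higher and 2 lower, against 28.3% and 31.1% of all genes (59.4% in either direction). Among genes of Sertoli identity, Dmrt1, a factor of the testicular fate, fell from 17.9, 21.2 and 32.8 CPM to 5.41, 6.23 and 6.49 CPM (-1.98, adjusted p = 7.56e-06). Cyp26b1, which degrades retinoic acid, fell from a mean of 5.27 to 1.02 CPM (-2.29, adjusted p = 0.00123), or by 1.65 on the log2 scale with the trends removed. The list of 17 held 3 genes that rose and 3 that fell (17.6% each, against 14.2% and 17.4% of all genes). Its summed level went the other way from these 2 genes, from between 430.3 and 495.5 CPM to between 575.2 and 615.8 CPM, without overlap.

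Genes of the cornified envelope, the cross-linked coat of epidermal cells, were among the largest falls. They are shown with 2 promoters, since Sprr2d and Lor lie in the same gene cluster and both hold an exact AP-1 element, the binding sequence of FOS and JUN proteins (TGACTCA on either strand, in capitals and written here as its reverse complement). Promoters run from 250 bases before to 50 bases after the start site, 5′ to 3′ on the strand of the gene, from RefSeq on mouse GRCm38.p6.
Sprr2d promoter, chr3:92338890-92339189, plus strand: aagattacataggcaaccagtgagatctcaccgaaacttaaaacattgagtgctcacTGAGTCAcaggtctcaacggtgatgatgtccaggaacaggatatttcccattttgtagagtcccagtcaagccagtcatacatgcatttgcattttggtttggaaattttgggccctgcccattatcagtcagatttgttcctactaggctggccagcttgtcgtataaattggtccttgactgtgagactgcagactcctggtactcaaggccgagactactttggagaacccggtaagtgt
Lor promoter, chr3:92083093-92083392, minus strand: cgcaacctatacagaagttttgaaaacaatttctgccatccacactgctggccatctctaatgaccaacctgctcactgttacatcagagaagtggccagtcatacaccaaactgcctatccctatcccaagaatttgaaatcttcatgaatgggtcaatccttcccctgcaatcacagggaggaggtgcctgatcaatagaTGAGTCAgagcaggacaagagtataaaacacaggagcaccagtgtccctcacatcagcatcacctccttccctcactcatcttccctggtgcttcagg

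Sprr2d, a small proline-rich protein of that coat, read 30.2, 38.3 and 58.2 CPM at E12.5 and 2.59, 3.65 and 2.49 CPM at E13.5. Lor, which codes for loricrin, read 34.2, 60.4 and 108.5 CPM and then 6.52, 6.23 and 5.59 CPM. For both genes replicate 3 was the highest library of E12.5 and no E13.5 library reached any E12.5 library, with log2 changes of -3.83 (SE 0.27, adjusted p = 4.94e-07) and -3.47 (SE 0.55, adjusted p = 0.000115). With the trends removed the change of Lor was -2.38. Of the 10 tested genes of this list, 4 fell and 1 rose. The other falls were of Sprr2a2, from 6.14, 5.64 and 18.1 CPM to 0.148, 1.04 and 0.453 CPM, and of Sprr2a1, which was at least 3.03-fold lower at E13.5, where all libraries were at or under the floor. The gene that rose was Krt14, a basal keratin, from a mean of 1.09 to 3.48 CPM (1.66, adjusted p = 0.0049). Sprr2 genes are near copies of each other, so the split of reads among them is uncertain. Flg and Cnfn, other genes of the epidermal coat, were at 0 in all 6 libraries. The AP-1 element was present in 10 of 22 promoters of the list (45.5%) and in 5.2% of 32851 promoters of the table. In Sprr2d it lay 193 and in Lor 48 bases before the start site. Apart from Ivl and Lor, all genes of the list that held it were of the Sprr family, so these promoters are not separate cases. The promoters of Sprr2a1 and Sprr2a2, which also fell, did not hold it. At E15.5 Sprr2d read 0.0, 0.0 and 0.134 CPM, and Lor 7.03, 7.13 and 8.11 CPM. In Sertoli cells Sprr2d was at 0 in all libraries of both days, and Lor rose from a mean of 3.79 to 15.1 CPM (2.01, adjusted p = 0.0152).

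Other large falls were of genes with varied roles. Nmur2, a receptor for neuromedins, and Slc52a3, a riboflavin transporter, had log2 changes of -2.84 and -2.75. Vgll2, a cofactor of TEAD transcription factors, read 10.9, 22.7 and 42.6 CPM at E12.5 and 0.815, 0.291 and 0.378 CPM at E13.5 (log2 change -5.75, SE 0.61, adjusted p = 3.88e-06). Cdkn1c, an imprinted inhibitor of cyclin-dependent kinases, read 1625.6, 2464.6 and 4208.9 CPM and then 588.0, 507.0 and 390.9 CPM (-2.48, SE 0.56, adjusted p = 0.00229). All E13.5 libraries were below all E12.5 libraries for both, and replicate 3 was again the highest of E12.5. Cdkn1c was back at 2021.8, 1925.0 and 2551.4 CPM at E15.5, whereas Vgll2 stayed at or under 0.174 CPM. Trpc7, a cation channel, was tight within each stage, with 22.5, 22.5 and 22.9 CPM and then 4.15, 3.86 and 4.23 CPM. Ybx1, a protein that binds RNA and DNA, fell from 377.4, 642.8 and 917.2 CPM to 118.4, 125.2 and 102.8 CPM (-2.48, adjusted p = 0.000158), and its reads can be shared with processed copies. Hnrnpu, a nuclear RNA-binding protein, fell by 1.48 on the log2 scale, and Dact2, an inhibitor of WNT and Nodal signals, fell by 2.48, or by 1.78 with the trends removed.

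Gap43, Rgs4 and Chgb were high at E11.5, low at E12.5, high at E13.5 and low again at E15.5. Gap43, a growth cone protein of axons, read 28.3, 48.2 and 34.6 CPM at E11.5, then 1.52, 1.05 and 0.659 CPM at E12.5, then 11.4, 12.8 and 15.6 CPM at E13.5, and then 2.0, 1.8 and 1.2 CPM at E15.5. Rgs4, a brake on G protein signals, read 1.44, 1.45 and 0.527 CPM at E12.5 and 16.3, 12.8 and 15.3 CPM at E13.5. Chgb, a protein of secretory granules, read 3.38, 2.09 and 2.81 CPM and then 29.3, 22.5 and 34.7 CPM. For these 3 genes no library of E12.5 reached any library of E13.5, with log2 rises of 3.61 (SE 0.3), 3.68 (SE 0.5) and 3.37 (SE 0.66). Cyp11b1, the enzyme of the last step to corticosterone in the adrenal cortex, read 0.777, 0.5 and 0.0 CPM at E12.5 and 14.1, 14.1 and 10.8 CPM at E13.5 (4.89, SE 1.06, adjusted p = 0.00223). At E11.5 it read 3.9, 38.7 and 1.3 CPM, so that replicate 2 alone lay above the E13.5 libraries, and at E15.5 it was at 0 in all 3 libraries. Among genes with a log2 rise of at least 1, 21.5% were called lower at E15.5 than at E11.5 and 49.6% higher, against 31.1% and 28.3% of all genes.

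Several of these genes belong to a list of neuronal genes or to one of steroidogenic and adrenal genes. Of 30 neuronal genes tested, 10 rose (33.3%) and 1 fell (3.33%) from E12.5 to E13.5, against 14.2% and 17.4% of all genes. Their median log2 change was 0.57. At E15.5 20 of them were lower than at E11.5, against 31.1% of all genes. Snap25, a protein of vesicle fusion, was at least 14.3-fold higher at E13.5, since all E12.5 libraries were under the floor, and L1cam, an adhesion protein of axons, at least 2.85-fold. The gene that fell was Chrm4, an acetylcholine receptor, from 68.0, 109.1 and 91.3 CPM to 25.5, 16.5 and 18.1 CPM. Under a filter of 10 counts in every library 3 rose and 1 fell, and in limma's test on log2(TPM + 1) 5 rose and 4 fell. Of 19 steroidogenic and adrenal genes tested, 8 rose (42.1%) and 2 fell (10.5%). Cyp21a1, the other enzyme particular to adrenal steroids, read 0.194, 0.0 and 0.0 CPM and then 3.26, 3.32 and 4.15 CPM. Star, which brings cholesterol into mitochondria, rose from 17.1, 17.0 and 11.9 CPM to 44.4, 37.7 and 42.7 CPM (1.44, adjusted p = 1.47e-05), and Mc2r, the receptor for corticotropin, from a mean of 0.856 to 3.66 CPM (2.09). Hsd3b1 and Mrap also rose, and unlike the adrenal enzymes they were higher still at E15.5, with means of 279.0 and 18.4 CPM. Cyp11a1, which makes pregnenolone, read means of 23.1 and 24.5 CPM (adjusted p = 0.876), and Cyp17a1 read means of 5.41 and 7.37 CPM (adjusted p = 0.378).

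Some markers of other cell types also rose. In the list for neural crest, glia and chromaffin cells 4 of 9 tested genes rose (44.4%) and 0 fell, against 14.2% and 17.4% of all genes. Among those that rose were Th and Dbh, enzymes of catecholamine synthesis. Th read 1.48, 1.0 and 0.308 CPM at E12.5 and 10.3, 6.43 and 10.3 CPM at E13.5, and 16.2, 114.8 and 27.2 CPM at E11.5. Replicate 2 of E11.5 was the highest library for Th, Chgb, Rgs4 and Cyp11b1 alike. Sox10 and Foxd3, the defining genes of neural crest and glia, were at 0 in all 6 libraries of E12.5 and E13.5. The summed level of the whole neural crest list lay between 70.7 and 153.0 CPM at E12.5 and between 94.9 and 113.7 CPM at E13.5, so the sums overlapped. The steroidogenic marker list shares genes with the steroidogenic and adrenal list above, Hsd3b1 and Cyp11a1 among them, so it is not separate from it. Of this marker list 6 of 10 rose and 0 fell, and its sum went from between 87.5 and 107.3 to between 230.2 and 243.8 CPM. In RNA from pools of sorted cells, a change in the share of a cell type and a change in RNA per cell cannot be told apart. The part of such cells in the rises of Gap43, Rgs4, Chgb and Cyp11b1 was not tested. With replicate 1 of E13.5 placed at E12.5, as 1 field of its label gives, 2 neuronal genes were called higher. The same setting called higher 3 genes of the steroidogenic and adrenal list, 1 of the steroidogenic marker list and 0 of the neural crest list. In the lists for endothelial, immune, erythroid and muscle cells edgeR called 0 of 11, 0 of 14, 0 of 13 and 0 of 7 genes, DESeq2 likewise 0 in each, and 1, 0, 2 and 1 had an unadjusted p under 0.05. Limma on log2(TPM + 1) called 1 immune and 1 muscle gene lower. A fit of the 6 libraries alone called 4 erythroid, 3 immune and 2 muscle genes lower and 1 immune gene higher. Of 16 interstitial markers edgeR called 1 higher and 2 lower, and 8 had an unadjusted p under 0.05. Their summed level lay between 408.3 and 728.9 CPM at E12.5 and between 435.0 and 547.6 CPM at E13.5. Erythroid sums were 807.6 to 1833.1 CPM at E12.5 and 777.1 to 918.1 CPM at E13.5. Muscle sums were 607.6 to 620.1 CPM and then 620.6 to 668.7 CPM. Endothelial sums were 50.6 to 68.1 CPM at E12.5 and 62.5 to 70.5 CPM at E13.5. Immune sums were 92.0 to 92.9 CPM and then 73.2 to 87.4 CPM, lower at E13.5 without overlap.

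Lancl3, Adh1 and Upk1b rose steeply and were still above their E12.5 level at E15.5. Lancl3, of the lanthionine synthetase family, had the smallest p of all genes, with 4.7, 4.91 and 4.39 CPM at E12.5 and 38.4, 41.1 and 44.9 CPM at E13.5 (3.15, SE 0.16, adjusted p = 1.21e-10). It was at 80.1 CPM at E11.5 and at 33.6 CPM at E15.5, as means. Adh1, an alcohol dehydrogenase that oxidises retinol, read 9.13, 6.27 and 9.89 CPM and then 74.5, 71.8 and 74.0 CPM, with 25.4, 19.7 and 23.8 CPM at E15.5. At E11.5 Adh1 read 110.0, 244.3 and 117.5 CPM, above every E13.5 library. Its change from E11.5 to E15.5 was -2.78 on the log2 scale, so like Gap43 it was high, low, high and then lower. Upk1b, a uroplakin of surface epithelium, rose from a mean of 2.02 to 17.9 CPM and went on to 42.6 CPM at E15.5. None of these 3 genes had overlapping groups.

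Asns, the asparagine synthetase, fell with little spread between libraries. It is a target of ATF4, the factor induced when amino acids run short or the endoplasmic reticulum (ER) is under stress, and its promoter holds the amino acid response element TGATGAAAC, in capitals below, 23 bases before the start site. That exact element is in 1 of 28 promoters of the amino acid response list (3.57%), that of Asns, and in 0.247% of all promoters of the table, and was searched for after the values were seen.
Asns promoter, chr6:7693160-7693459, minus strand: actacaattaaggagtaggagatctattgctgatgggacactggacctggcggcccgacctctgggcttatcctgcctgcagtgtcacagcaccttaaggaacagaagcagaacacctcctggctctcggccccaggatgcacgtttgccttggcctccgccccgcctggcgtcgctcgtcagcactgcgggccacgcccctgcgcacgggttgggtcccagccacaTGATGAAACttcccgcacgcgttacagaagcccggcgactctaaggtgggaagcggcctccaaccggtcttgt

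Asns read 683.1, 612.2 and 566.0 CPM at E12.5 and 177.8, 163.7 and 160.6 CPM at E13.5 (log2 change -1.89, SE 0.12, adjusted p = 2.71e-09). It read 126.2, 141.3 and 127.8 CPM at E15.5. In Sertoli cells it went the other way, from 114.4, 108.1 and 107.6 CPM to 180.1, 185.8 and 185.4 CPM (0.74, adjusted p = 0.00014). The difference between the 2 changes was -2.63 on the log2 scale (adjusted p = 5.6e-09). In a list of amino acid response genes compiled after values had been seen, 2 of 28 tested rose (7.14%) and 8 fell (28.6%). Of all genes, 14.2% rose and 17.4% fell. The falls of the list included Slc7a11, the cystine transporter (-1.39), Slc6a9, a glycine transporter (-1.02), and Atf5 (-1.12). Nars and Yars, which load tRNA with asparagine and tyrosine, rose (0.43 and 0.24). With the trends removed the list had 5 in each direction, and without replicate 2 of E13.5 it had 5 that fell. Ddit3, which codes for the stress factor CHOP and belongs to the ER list below, rose from 7.61, 8.59 and 12.4 CPM to 24.4, 25.9 and 27.2 CPM (1.44, adjusted p = 0.000233).

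Several chaperones and folding factors of the ER rose in pre-granulosa cells over the day in which they fell in Sertoli cells, among them Hspa5, Manf and Creld2. Their promoters are known for the ER stress response element, which is CCAAT and, after a gap of 9 bases, CCACG (on either strand, and so containing the CCAAT of NF-Y). The element was searched for after the values were seen. It is in capitals in the promoters of Hspa5, Pdia6 and Creld2, and in Creld2 it is written as its reverse complement. For Manf the table of promoters had no entry.
Hspa5 promoter, chr2:34771840-34772139, plus strand: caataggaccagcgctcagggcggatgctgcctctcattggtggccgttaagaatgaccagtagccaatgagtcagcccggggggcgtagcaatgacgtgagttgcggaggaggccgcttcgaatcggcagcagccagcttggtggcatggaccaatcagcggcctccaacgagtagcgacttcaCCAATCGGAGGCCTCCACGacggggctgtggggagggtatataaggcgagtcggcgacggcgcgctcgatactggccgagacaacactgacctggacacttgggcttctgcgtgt
Pdia6 promoter, chr12:17266339-17266638, plus strand: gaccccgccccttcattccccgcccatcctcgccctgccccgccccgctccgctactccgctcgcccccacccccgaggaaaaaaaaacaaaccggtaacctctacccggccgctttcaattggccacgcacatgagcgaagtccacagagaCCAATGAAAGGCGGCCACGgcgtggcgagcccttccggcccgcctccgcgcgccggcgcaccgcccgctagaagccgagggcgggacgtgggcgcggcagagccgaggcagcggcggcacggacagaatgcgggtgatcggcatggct
Creld2 promoter, chr15:88819396-88819695, plus strand: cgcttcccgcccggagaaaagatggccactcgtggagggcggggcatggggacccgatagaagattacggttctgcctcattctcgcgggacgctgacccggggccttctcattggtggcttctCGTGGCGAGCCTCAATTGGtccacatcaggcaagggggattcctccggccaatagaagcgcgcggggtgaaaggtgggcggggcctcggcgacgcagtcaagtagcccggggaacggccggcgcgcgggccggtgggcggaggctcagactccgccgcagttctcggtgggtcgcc

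The element was in 9 of 24 promoters of the ER list (37.5%) and in 0.119% of all promoters. The genes that held it included Syvn1, whose level fell, as given below. The element lay 65 bases before the start of Hspa5, 98 before that of Pdia6 and 126 before that of Creld2. Of 26 genes of ER folding and quality control, a list compiled after values had been seen, 13 rose and 6 fell in pre-granulosa cells (median 0.31), while 1 rose and 15 fell in Sertoli cells (median -0.45), where 8.02% of all genes rose and 8.62% fell. The change differed between the 2 kinds of cell for 19 of the 26 genes, against 25.2% of all genes.

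Hspa5, the main chaperone of the ER (BiP), read 1737.9, 1519.5 and 1635.6 CPM at E12.5 and 2636.6, 2887.6 and 3062.4 CPM at E13.5 (0.81, SE 0.16, adjusted p = 0.000582). In Sertoli cells it read 6232.6, 5903.1 and 5851.9 CPM and then 3638.9, 4165.8 and 4066.9 CPM. Manf, a secreted protein induced by ER stress, read 128.8, 123.7 and 121.0 CPM and then 222.3, 222.7 and 233.2 CPM (0.86, adjusted p = 2.19e-06), and in Sertoli cells 325.4, 299.3 and 294.7 CPM and then 182.1, 183.8 and 171.4 CPM. The groups did not overlap within either kind of cell, and the direction was opposite. Creld2 rose by 0.55 on the log2 scale, and Herpud1, which acts in ER-associated degradation, by 1.22. Pdia6, a disulfide isomerase, rose from 654.8, 614.9 and 622.2 CPM to 756.1, 756.1 and 726.7 CPM (0.24, adjusted p = 0.00435), and this was not called with the trends removed (0.07, adjusted p = 0.343). Not all ER genes rose. Edem1, which marks misfolded glycoproteins for removal, fell by 2.4 on the log2 scale, Syvn1, the ubiquitin ligase of that pathway, fell by 1.65 (-1.05 with the trends removed), and Hyou1 fell by 1.04. Without replicate 2 of E12.5, or without replicate 2 or 3 of E13.5, 13 rose and 3 fell.

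**Figure D4:**
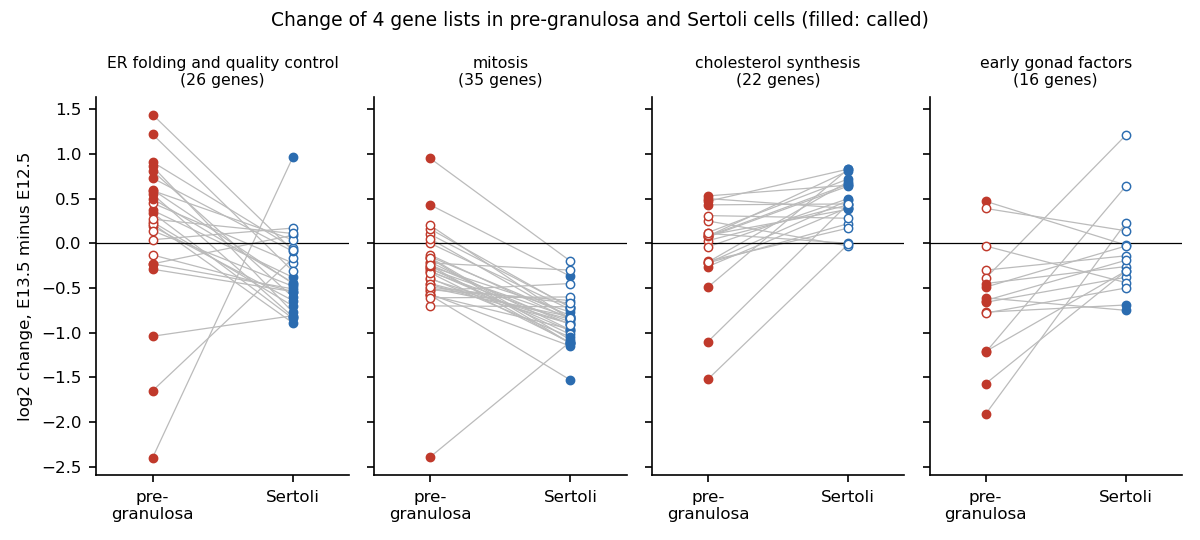
Log2 change from E12.5 to E13.5 of each tested gene of 4 lists, in pre-granulosa cells (red) and in Sertoli cells (blue), with a grey line joining the 2 values of a gene. Filled points are called at an adjusted p under 0.05; in the ER list 13 of 26 genes rose in pre-granulosa cells and 15 fell in Sertoli cells, and in the mitosis list 20 of 35 fell in Sertoli cells and 1 in pre-granulosa cells.

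Genes of mitosis mostly did not pass the test. Of 35 tested, 2 rose (5.71%) and 1 fell (2.86%), against 14.2% and 17.4% of all genes, and the median log2 change was -0.29. In a fit of the 6 libraries alone, 13 were called lower and 2 higher. Pttg1, which codes for securin, rose from 46.5, 42.9 and 53.5 CPM to 87.9, 94.2 and 93.6 CPM (0.95, adjusted p = 1.16e-06). Espl1, the separase that securin holds back, fell from 8.62, 13.3 and 6.06 CPM to 1.33, 1.95 and 1.96 CPM (-2.39, adjusted p = 0.000582, and -1.71 with the trends removed). The spindle checkpoint gene Bub3 rose by 0.43. Mki67, the common marker of dividing cells, read means of 23.5 and 16.6 CPM (-0.5, adjusted p = 0.378). In Sertoli cells 20 of the 35 fell and 0 rose, against 8.62% and 8.02% of all genes. Over E11.5 to E15.5 in pre-granulosa cells 28 fell and 1 rose, against 31.1% and 28.3%. The change differed between the 2 kinds of cell for 3 of the 35 genes, against 25.2% of all genes. The separate counts therefore do not show a difference for the others. Promoters of the list held the CHR element of cell cycle genes (TTTGAA) in 76.5% of 34, against 17.9% of all promoters.

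DNA replication genes went both ways, with 6 of 35 higher and 8 lower (17.1% and 22.9%, against 14.2% and 17.4% of all genes). With the trends removed 6 were higher and 3 lower. The counts moved with single libraries. Rises numbered 1 without replicate 2 of E12.5 or replicate 3 of E13.5, 2 without replicate 1 of E13.5 and 3 without replicate 3 of E12.5. Falls numbered 3 without replicate 2 of E12.5 or of E13.5, and 4 without replicate 1 of E12.5 or replicate 3 of E13.5. Orc1, the large subunit of the origin complex, fell from a mean of 44.2 to 16.6 CPM (-1.41, adjusted p = 6.38e-05), and Pold1, the catalytic subunit of polymerase delta, from 104.1 to 42.0 CPM (-1.31), or by 0.47 on the log2 scale with the trends removed. Pcna, the sliding clamp, rose by 0.55, which was not called with the trends removed (0.23, adjusted p = 0.0974). Of the inhibitors of cyclin-dependent kinases, Cdkn1b, which codes for p27, rose from 118.4, 115.7 and 86.7 CPM to 190.6, 211.3 and 237.2 CPM (0.99, adjusted p = 0.00922), on the day Cdkn1c fell. Ccnd2, a D-type cyclin, rose from 536.5, 509.8 and 414.5 CPM to 689.8, 731.3 and 718.5 CPM (0.55, adjusted p = 0.000209).

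Among subunits of the mitochondrial respiratory chain more rose than fell. Of 27 encoded in the nucleus 15 rose (55.6%) and 1 fell (3.7%), against 14.2% and 17.4% of all genes (median 0.28). Once the trends were removed 7 were higher and 3 lower. In limma's test on log2(TPM + 1) 8 were higher and 4 lower. Without replicate 1 of E12.5, or without replicate 3 of E13.5, 9 rose. Cycs, which codes for cytochrome c, rose from 60.5, 52.7 and 56.6 CPM to 108.2, 127.3 and 125.0 CPM (1.09, SE 0.1, adjusted p = 5.53e-07). Uqcrc1, of complex III, rose by 0.62 and Sdhb, of complex II, by 0.64. The subunit that fell was Atp5b, of the ATP synthase (-0.45). Of the 13 protein genes of the mitochondrial genome, a list compiled after values had been seen, 7 rose (53.8%) and 1 fell (7.69%). CYTB, of complex III, read 4663.2, 4505.7 and 5488.3 CPM and then 8269.7, 9332.3 and 9047.3 CPM. COX1, of complex IV, read 917.2, 895.5 and 1005.6 CPM and then 2266.4, 2284.0 and 2615.8 CPM. No E12.5 library reached an E13.5 library for either gene, and the 13 genes together took between 13150.5 and 15965.8 CPM at E12.5 and between 21877.8 and 23069.0 CPM at E13.5. These genes had no GC value in the annotation used and are not in the fit with the trends removed. In Sertoli cells 0 of the 27 nuclear subunits rose and 2 fell, where 8.02% of all genes rose and 8.62% fell. The change differed for 12, against 25.2% of all genes.

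Other metabolic lists moved less in one direction. In cholesterol synthesis 4 of 22 genes rose and 4 fell, against 14 that rose and 0 that fell in Sertoli cells. In pre-granulosa cells this was 18.2% in each direction, beside 14.2% and 17.4% of all genes. Without replicate 3 of E12.5, or without replicate 2 of E13.5, 2 of the list fell. Srebf2, the transcription factor of that pathway, fell from 89.9, 117.0 and 73.0 CPM to 36.1, 29.4 and 32.5 CPM (-1.52, adjusted p = 1.64e-05, and -0.73 with the trends removed), while the enzymes Fdps and Msmo1 rose by 0.53 and 0.47. In glycolysis 3 of 22 rose and 4 fell (13.6% and 18.2%), against 1 and 14 in Sertoli cells. Here 1 rose without replicate 3 of E12.5 or replicate 1 of E13.5, and 2 fell without replicate 2 of E12.5. Hk1, which makes glucose 6-phosphate, fell by 1.2, and Slc16a3, a lactate transporter, by 1.26, with values of -0.61 and -0.62 once the trends were removed. Tkt, of the pentose phosphate pathway, fell from 1005.4, 1115.4 and 1209.1 CPM to 647.5, 591.7 and 550.6 CPM (-0.9, adjusted p = 1.64e-05). The most abundant gene to rise was Ubb, a polyubiquitin gene, from 9699.7, 7249.1 and 8779.8 CPM to 17939.9, 19908.8 and 19393.7 CPM (1.15, adjusted p = 1.71e-05). Ubb has relatives with near-identical repeats, so its share of reads is uncertain.

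Genes of the extracellular matrix fell more often than they rose in the count test, and for collagens this balance was not kept with the trends removed. Of 29 collagens 9 fell (31.0%) and 1 rose (3.45%), against 17.4% and 14.2% of all genes, and with the trends removed 2 fell and 3 rose. Without replicate 2 of E12.5, or without replicate 2 of E13.5, 5 fell. Col12a1, a collagen that coats fibrils, fell from a mean of 157.7 to 73.7 CPM (-1.1), and Col4a5, of basement membranes, from 75.0 to 29.6 CPM (-1.34), and both were called with the trends removed (-1.05 and -1.04). Of 30 genes of basement membranes and integrins, 10 fell (33.3%) and 1 rose (3.33%), and with the trends removed 6 and 4. Lamb2, a laminin chain, read 108.5, 122.4 and 105.8 CPM and then 37.0, 32.0 and 30.6 CPM (-1.76, SE 0.13, adjusted p = 5.18e-08), or -0.9 with the trends removed. Itga6, a laminin receptor chain, rose by 0.48. Of 38 axon guidance genes 12 fell (31.6%) and 2 rose (5.26%), and with the trends removed 9 and 4. Nrp1, the semaphorin and VEGF receptor, fell from a mean of 50.6 to 22.8 CPM (-1.15).

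Lists of signalling genes were mixed. Of 33 genes of TGF-beta, BMP and activin signals 4 rose (12.1%) and 5 fell (15.2%), against 14.2% and 17.4% of all genes. Of 17 antagonists and feedback genes of WNT 4 rose (23.5%) and 2 fell (11.8%). Those 4 and 2 were 4 and 0 with the trends removed, 2 and 0 without replicate 2 of E13.5, and 2 and 2 without replicate 1 of E12.5, and 1 fell without replicate 2 or 3 of E12.5 or replicate 3 of E13.5. Of 23 WNT ligands and receptors 5 fell (21.7%, against 17.4% of all genes) and 0 rose, and with the trends removed 3 fell and 3 rose. Wnt9a read 71.3, 80.4 and 83.1 CPM at E12.5 and 27.2, 20.8 and 22.3 CPM at E13.5 (-1.74, adjusted p = 2.57e-06), and Lrp5, a coreceptor, fell by 1.66 on the log2 scale. Neither gene had overlapping groups, and both were called with the trends removed. Znrf3, which removes WNT receptors from the surface, rose by 0.67. Fgfr2, a receptor for fibroblast growth factors, fell from 300.4, 387.8 and 428.8 CPM to 177.0, 157.1 and 147.0 CPM (-1.22, adjusted p = 0.00359). Spry2, a feedback inhibitor of that pathway, rose from 27.9, 24.9 and 19.1 CPM to 49.9, 64.2 and 76.3 CPM (1.4, adjusted p = 0.000402). Of 24 chromatin regulators 9 fell (37.5%, against 17.4% of all genes) and 2 rose (8.33%, against 14.2%), and with the trends removed 4 and 6. Ring1, a Polycomb ubiquitin ligase, fell by 1.47, and Dnmt3a, a DNA methyltransferase, rose from 238.0, 230.2 and 224.5 CPM to 336.2, 359.9 and 333.3 CPM (0.57, adjusted p = 0.000124).

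**Figure D5:**
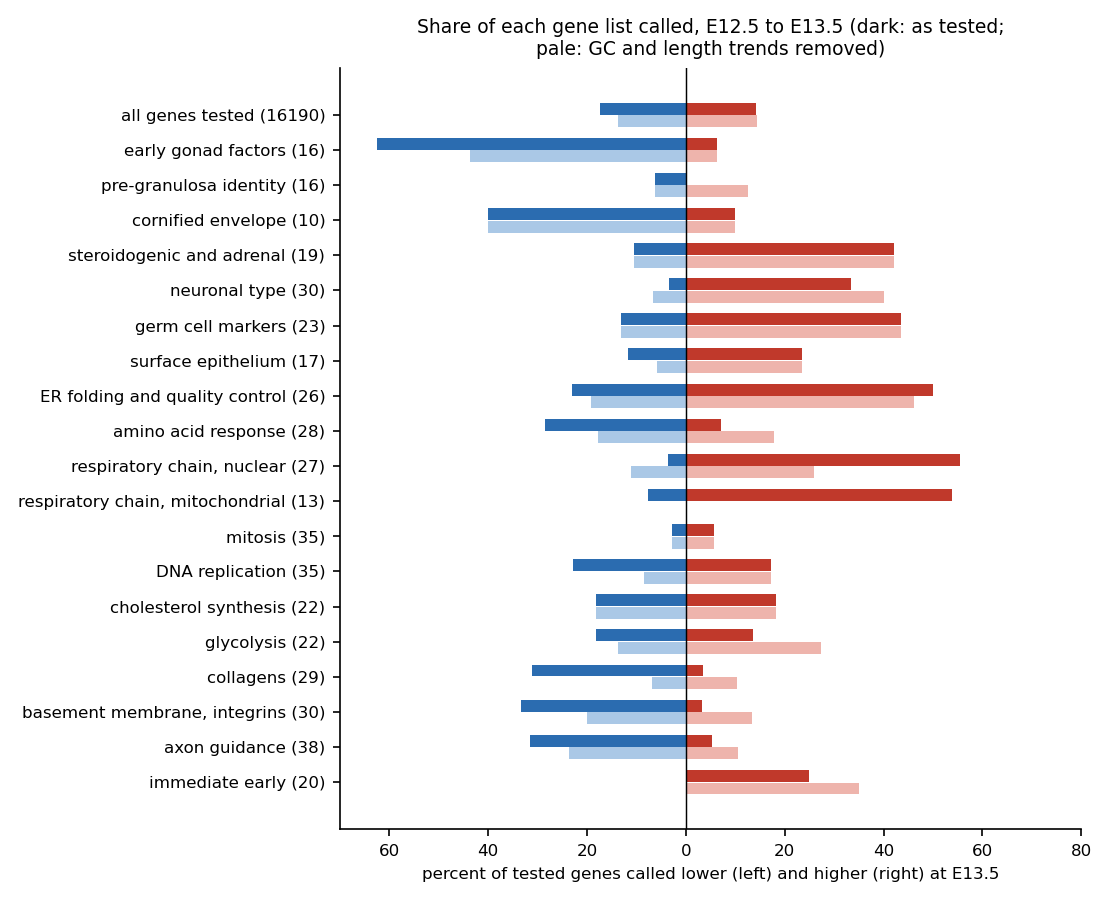
Percent of the tested genes of each list called higher (right, red) and lower (left, blue) from E12.5 to E13.5, with the number tested in parentheses and all genes on top. Dark bars are the count test and pale bars the fit with GC and length trends removed, which holds no gene of the mitochondrial genome; of the collagens 31.0% are lower in the count test and 2 of 29 genes with the trends removed.

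Some genes of the surface epithelium and some receptors for hormones rose. Of 17 surface genes 4 rose (23.5%, against 14.2% of all genes) and 2 fell (11.8%, against 17.4%). Upk3b, a uroplakin of mesothelium, read 99.2, 91.2 and 27.6 CPM at E12.5 and 265.1, 277.6 and 287.3 CPM at E13.5 (1.93, adjusted p = 0.00425), and Aldh1a1, which makes retinoic acid, rose by 1.15. Replicate 3 was the lowest E12.5 library for Upk3b and Upk1b. Podxl, a sialomucin of the apical surface, fell from 492.6, 611.9 and 540.0 CPM to 263.8, 215.6 and 220.5 CPM (-1.23, adjusted p = 5.07e-06). Of 15 hormone receptors 4 rose (26.7%) and 1 fell (6.67%). Prlr, the prolactin receptor, rose from a mean of 4.47 to 16.2 CPM (1.86, adjusted p = 0.000245) and read 90.9, 90.5 and 101.3 CPM at E15.5. Fshr was at or near 0, with means of 0.0146 and 0.0138 CPM, and Amhr2, the receptor for AMH, read means of 579.1 and 582.5 CPM (adjusted p = 0.977).

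Immediate early genes respond to stimuli and to tissue handling. Of 20 tested 5 rose, beside 14.2% of all genes, 0 fell and 15 did not pass the test. Nr4a1, an orphan nuclear receptor, read 9.56, 11.7 and 25.4 CPM and then 61.3, 77.4 and 130.0 CPM (2.53, SE 0.58, adjusted p = 0.00261). Atf3, a stress factor, read 6.18, 9.82 and 35.1 CPM and then 79.3, 94.0 and 145.7 CPM (2.65, SE 0.86, adjusted p = 0.0243). Dusp1, a phosphatase of MAP kinases, read 456.2, 482.2 and 750.0 CPM and then 1325.1, 1660.5 and 1782.0 CPM. Replicate 3 of E12.5 was the highest of its group for all 3 genes and still under every E13.5 library. The summed level of the list was 6042.1 and 6971.1 CPM in replicates 1 and 2 of E12.5, 11673.8 CPM in replicate 3, and between 11479.1 and 14177.6 CPM at E13.5, so the sums overlapped. Without replicate 3 of E12.5 the test called 7 of the list higher, and without replicate 1 or replicate 2 of E12.5 it called 2, and without replicate 3 of E13.5 it called 3. The products of these genes include the FOS and JUN proteins that bind the AP-1 element shown above, and Fos itself read means of 1029.5 and 1906.5 CPM (0.89, adjusted p = 0.152). Whether handling differed between the stages was not tested.

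Markers of germ cells, which pre-granulosa cells enclose, went in both directions. Of 23 tested 10 rose (43.5%) and 3 fell (13.0%), against 14.2% and 17.4% of all genes. Their summed level lay between 189.4 and 200.9 CPM at E12.5 and between 132.2 and 154.6 CPM at E13.5. Without replicate 3 of E13.5, 6 rose. Among those that rose were genes of meiosis at low levels. Stra8, induced by retinoic acid at meiotic entry, read 0.194, 0.227 and 0.0 CPM and then 0.519, 1.66 and 1.43 CPM, and Sycp3, of the synaptonemal complex, 0.544, 0.818 and 0.791 CPM and then 1.11, 3.07 and 2.27 CPM. Sycp3 reached 59.2, 78.8 and 101.3 CPM at E15.5. Replicate 1 was the lowest E13.5 library for both. Those that fell were Rec8, Taf7l and Utf1, of which Utf1, a chromatin factor of pluripotent cells, went from 17.2, 20.4 and 27.2 CPM to 3.04, 4.4 and 4.38 CPM (-2.44, adjusted p = 5.78e-07). Imprinted genes were split, with 4 of 22 higher (18.2%) and 5 lower (22.7%), against 14.2% and 17.4% of all genes. Without replicate 1 of E12.5, 8 were lower. Peg10 fell by 1.21 and Sgce, its neighbour, rose by 0.81.

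Many of the changes differed from those of Sertoli cells over the same day. Of the genes that rose, 51.1% differed from the Sertoli change, and of those that fell, 58.9%, against 25.2% of all genes. The pre-granulosa test and the test of the difference share their libraries, so these shares are not independent. In Sertoli cells 16.6% of genes were called. A total of 568 genes were called in opposite directions in the 2 kinds of cell. Igf2, the imprinted growth factor, read 120.0, 164.8 and 143.5 CPM and then 202.0, 226.6 and 230.2 CPM in pre-granulosa cells (0.62, and 1.22 with the trends removed), and fell to at most 3.26 CPM in Sertoli cells (-2.57). Mmp11, a matrix metalloprotease, read 62.9, 83.2 and 69.9 CPM and then 41.0, 33.7 and 32.2 CPM in pre-granulosa cells, and 92.4, 115.0 and 125.4 CPM and then 370.0, 282.7 and 312.7 CPM in Sertoli cells. No stage overlapped the other within either kind of cell for these genes, and their directions were opposite. Unc13b, which primes vesicles for release, read means of 22.0 and 12.6 CPM in pre-granulosa cells (-0.8) and 74.8 and 220.4 CPM in Sertoli cells (1.56). The difference in change was 3.19 for Igf2, -2.55 for Mmp11 and -2.36 for Unc13b on the log2 scale, each called at an adjusted p of 1.08e-06 or less.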

How the data were processed

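RNA was measured in 24 libraries of sorted fetal gonad cells, 3 in each of 8 groups of sex and stage. The authors' deposited table of expected counts per gene held 32040 genes, of which 7739 had no count, and 17.5% of its values were not whole, so values were rounded. The authors also deposited TPM values. The build was mm10 per the submitters' processing notes, and the aligner, the counter and the use of strand are not given in the sources used here. No column of the tables was left without a sample.

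The test on counts was that of edgeR 4.0.16 under R 4.3.3: TMM scaling, filterByExpr, 1 mean per group over all 24 libraries, robust quasi-likelihood fit with 16 residual degrees of freedom before moderation, and Benjamini-Hochberg adjustment over 16190 genes at 0.05. The biological coefficient of variation was 17.4%. The contrasts were E13.5 minus E12.5 in XX cells, its difference from that in XY cells, and E15.5 minus E11.5 in XX cells. Alternatives were DESeq2 1.42.0, limma 3.58.1 on log2(TPM + 1) and log2(TPM + 0.1), other scaling and filters, subsets of the libraries, a replicate block and the removal of each library. The scripts were tested on simulated data. Fold bounds set the group at or under the floor to 3 counts per library, averaged over the group, and floors cover counting error only. The trend-removed fit used GC content and length of the longest GENCODE transcript, found for 97.1% of tested genes.

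Genes were named from the lists or by rules: the 12 largest folds per direction at 10 CPM or more without overlap, the 10 largest CPM differences per direction, the 8 smallest p, the 8 smallest p of the difference with opposite directions, and the 5 largest changes per direction whose sign was opposite from E11.5 to E15.5. The members and the lists were chosen with earlier results of these data known, and the lists of ER, amino acid response and mitochondrial genome genes after values were seen. Promoter motifs searched as exact matches on both strands were the GATA factor element AGATAA, the NR5A1 element CAAGGTCA, the TCF and LEF element CTTTGATC, the AP-1 element TGACTCA, the NF-Y element CCAAT, the cell cycle element TTTGAA, and the ER stress and amino acid response elements; 12425 of the tested genes had a promoter in the RefSeq table. A match describes letters in a window only. Some results are not reported here.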

Additional observations from a re-analysis of the deposited data

Results flagged for a closer look

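A difference between the change in pre-granulosa cells and that in Sertoli cells was called for 4074 genes in edgeR's quasi-likelihood test (adjusted over all genes). Of the genes called in opposite directions in the 2 kinds of cell, the 8 with the smallest p were taken. The difference, as the log2 change in pre-granulosa cells minus that in Sertoli cells, was 3.19 for Igf2 (adjusted p = 8.01e-08), 2.53 for Gxylt2, a xylosyltransferase (6.91e-07), 2.36 for Pde9a, a phosphodiesterase of cyclic GMP (2e-07), 1.64 for Manf (1.34e-07) and 0.94 for Pdia6 (7.45e-07). It was -2.63 for Asns (5.6e-09), -2.55 for Mmp11 (7.52e-07) and -2.36 for Unc13b (1.08e-06). Each of the 8 differences kept its direction and its call in the 23 alternatives that do not ask for a log2 change of at least 1, which Pdia6 does not reach. The size for Gxylt2 fell to 0.92 in limma's test on log2(TPM + 1). Gxylt2 read 58.0, 53.2 and 52.2 CPM and then 69.8, 77.1 and 73.6 CPM in pre-granulosa cells, and 4.39, 4.49 and 4.8 CPM and then 1.22, 0.916 and 1.07 CPM in Sertoli cells. The part of mouse line and fluorophore in these differences cannot be told apart from that of sex.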

How the results depend on the processing

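The count of 5129 called genes moved as follows. Asking for a log2 change of at least 1 left 1404 genes, 405 higher and 999 lower. A fit of the 12 pre-granulosa libraries alone called 3933 genes, and a fit of the 6 libraries compared alone called 6462. Limma on log2(TPM + 1) called 999 higher and 4273 lower, on log2(TPM + 0.1) 958 higher, and on log2(TPM + 1) of all genes 952 higher. With replicate 1 of E13.5 placed at E12.5, 2050 genes were called, 667 higher and 1383 lower. With the GC and length trends removed, 1866 were lower without replicate 1 of E13.5 and 1865 without replicate 3 of E12.5. Leaving out each library gave 3777 to 4556 genes, 1741 to 2080 higher and 1980 to 2738 lower. The difference from Sertoli cells gave 1831 genes at a log2 change of at least 1, 2148 with that library placed at E12.5 and 3179 to 3783 without single libraries. E15.5 minus E11.5 gave 4672 genes at a log2 change of at least 1, 6225 with only the libraries compared and 8535 to 10511 without single libraries. The similarity of replicate 1 of E13.5 to its stage was 0.9932 over filtered genes and 0.9555 on TPM. Its similarity to the E12.5 libraries was 0.9773 and 0.9536. The cause was not tested.

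Replicate numbers are shared between groups. Deviations of same-numbered libraries of E12.5 and E13.5 correlated at -0.025, -0.075 and 0.015, and those of other pairs at between -0.082 and 0.131. With 3 libraries in each group these values cannot decide whether the numbers pair the libraries. With a replicate block 5066 genes were called in the step, 4009 in the difference and 9563 from E11.5 to E15.5.

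Of the genes named by rules, 50 of 53 kept direction and call with the trends removed (Pde9a and Pdia6 were among the 3 that lost the call). With replicate 1 of E13.5 placed at E12.5, 34 of 55 kept both. Of the called genes of the lists, 167 of 245 kept both with the trends removed, 70 lost the call and 8 changed direction. When that replicate was placed at E12.5, 90 of the called list genes kept both and 161 lost the call. At 3 counts a library, levels under 0.117 to 0.227 CPM were not detectable.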
